A study of Mus musculus with 5 samples.

Results

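Enterochromaffin (EC) cells with a high level of Afp were taken from a droplet library of lineage-labeled cells of the mouse small intestine. They were chosen by measured values: a barcode had to hold more than 1000 genes and under 10% of its unique molecular identifiers (UMIs, each standing for 1 captured RNA molecule) on mitochondrial genes. Levels are UMIs of a gene per 10000 UMIs of the cell. The gate asked for Tph1 of at least 10, Tac1 under 30, Sct under 1500, Cck under 200, Gip under 500 and a sum of the goblet cell genes Zg16, Fcgbp, Clca1 and Spink4 under 500. This gate held 1392 cells. Afp was at least 20 in 414 of them, here called Afp-high cells, which were 29.74% of the gate (27.35 to 32.22%) and 4.38% (3.98 to 4.81%) of all 9451 cells. The same gate held 785 cells with Afp under 5, called Afp-low cells and used for comparison, and 193 cells in between. Intervals here and below are 95% intervals (exact Clopper-Pearson for shares, exact Poisson for summed UMIs, exact conditional binomial for ratios) and cover counting error only.

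The library pooled 4 mice of 6 weeks, 2 males and 2 females, of the C57Bl/6J strain, with the genotype Neurog3-Cre; R26-LSL-tdTomato and no treatment. Cre under Neurog3, the gene of the endocrine progenitors, switches on tdTomato for good, and cells sorted for tdTomato can therefore include any descendant of a cell that once expressed Neurog3, goblet and Paneth cells among them. The Afp-high and Afp-low cells share this library, genotype and age. A library is 1 sample, so no difference between cells was tested and no p-value is given. A gene is called higher or lower past a 2-fold ratio of summed UMIs.

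EC cells are the enteroendocrine cells (EECs) that make serotonin, starting with tryptophan hydroxylase 1, the product of Tph1. They sense irritants, metabolites and stretch at the gut surface and release serotonin onto nerve endings and neighboring cells, and many of them also carry peptides such as secretin (Sct) or the tachykinin precursor Tac1. Afp, alpha-fetoprotein, is a plasma protein of the fetal liver and yolk sac. Reg4 is a secreted lectin of the regenerating family, Ucn3 (urocortin 3) a peptide of the corticotropin-releasing factor family, and Trpa1 an ion channel opened by irritants.

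The 9451 cells came from 10381 barcodes with more than 1000 genes. Barcodes were not limited to those called as cells by Cell Ranger. The 9451 cells are therefore more than the paper kept by the same limits on genes and mitochondrial share. Afp-high cells held 1923 to 15380 UMIs (median 2981, with a median of 1291.5 genes), and Afp-low cells 1754 to 20078 UMIs (median 2730, 1334 genes). The median mitochondrial share was 2.29% in the former and 2.49% in the latter, and ribosomal protein genes took 8.16 and 9.40% of UMIs. Both groups were shallow beside goblet cells (median 6942 UMIs). The default cutoff of Cell Ranger 2, applied to this file, came to 3892.4 UMIs, a mark that 90 Afp-high (21.7%) and 103 Afp-low cells (13.1%) passed. It was passed by 91.5% of goblet cells, so Afp-high cells were a smaller share of the cells over this cutoff than of all 9451 cells.

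The label of EC cells was checked against marker genes outside the gate. Chromogranin A (Chga), a granule protein, stood at 176 UMIs per 10000 in Afp-high cells, 117 in Afp-low cells and 3.50 in goblet cells. Chgb, its relative, stood at 415, 304 and 10.96. The vesicular monoamine transporter Slc18a1, which loads serotonin into granules, was at 4.77, 3.50 and 0.245, and Ddc, the enzyme of the second step of serotonin synthesis, at 4.74, 3.04 and 0.300. The transcription factors Lmx1a (2.02, 2.10 and 0.0601) and Fev (0.976, 0.934 and 0.0647) and the cofactor enzyme Gch1 (2.55, 3.36 and 0.908) were also above the goblet level in both groups. All 7 markers were present. The comparison was with goblet cells only and does not separate EC cells from other EECs. The cells are called EC cells below for these markers together with Tph1, which the gate required.

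Afp, on which the cells were selected, is given as a description. It ranged from 20.3 to 547.3 per 10000 in Afp-high cells (median 67.2), and 90% of them lay at or below 252.4. The lowest cells inside the threshold were at 20.3, 20.45 and 20.45, and the highest outside at 19.56, 19.54 and 19.48. The level ran through the threshold without a gap: 25 cells lay at 20 to under 25 and 53 at 15 to under 20, so that the Afp-high cells are a range of a continuous level. In Afp-low cells the summed level was 0.805. Among all 9451 cells, 724 had Afp of at least 20. Besides the 414 in the gate, 66 of them had Tph1 under 10 and 244 had Tph1 of at least 10 but failed another limit, most often the goblet sum (148 cells) or Tac1 (79 cells).

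Reg4 lies on chromosome 3 of GRCm38 from 98222156 to 98236748 and Afp, the gene of the selection, on chromosome 5 from 90490737 to 90508907. Their promoters are shown because both genes were high in the same cells. The sequences are the RefSeq windows from 250 bases before to 50 bases after the transcription start, 5′ to 3′ on the plus strand, in build GRCm38.p6: chr5:90490464-90490763 for Afp and chr3:98221906-98222205 for Reg4. Capitals mark the longest run of bases that the windows share on either strand, which has 12 bases.
Afp: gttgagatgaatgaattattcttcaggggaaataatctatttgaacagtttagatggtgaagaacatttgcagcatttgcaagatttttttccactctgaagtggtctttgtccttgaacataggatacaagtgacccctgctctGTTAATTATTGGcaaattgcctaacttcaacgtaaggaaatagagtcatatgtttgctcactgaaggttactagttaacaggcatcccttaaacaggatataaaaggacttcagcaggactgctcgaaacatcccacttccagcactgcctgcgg
Reg4: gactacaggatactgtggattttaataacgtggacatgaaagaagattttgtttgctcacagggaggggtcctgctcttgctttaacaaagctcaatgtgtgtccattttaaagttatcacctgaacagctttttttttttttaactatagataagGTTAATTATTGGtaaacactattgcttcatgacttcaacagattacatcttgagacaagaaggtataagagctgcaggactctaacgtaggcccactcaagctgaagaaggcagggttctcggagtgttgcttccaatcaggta
Counted from the transcription start of the RefSeq window, the run lies at -105 to -94 in Afp and at -94 to -83 in Reg4. For Afp this start lies upstream of the gene start given above, which comes from another annotation, and for Reg4 the starts are the same. It occurs on either strand in 3 of 32851 promoter windows of this table (0.00913%), those of Afp, Reg4 and C030018K13Rik. Its first 6 letters, GTTAAT, were looked for by themselves, a choice made after the promoters had been seen. They were present, on either strand, in 7.10% of all windows and for 8.24% of genes with a window. The genes looked up by name were Afp, Trpa1 and the 15 highest genes described below, Hbb-bs left out. Afp and Reg4 hold the letters by the way the run was found. Of the other 11 genes looked up that have a window, Alb, Gdf15 and Ptgr1 hold them. Further genes described below were not looked up. Trpa1, Cidea and Enpp2 had no entry. A match of letters describes the window and not a bound site.

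Reg4 was the most abundant gene of Afp-high cells and took 8.62% of their UMIs, against 1.04% in Afp-low cells, where it ranked 8. Over single cells its level ran from 46.3 to 2099.1 per 10000 in Afp-high cells (median 828.2) and from 0 to 862.4 in Afp-low cells (median 23.9). The groups overlapped, but 347 Afp-high cells (83.8%) and 34 Afp-low cells (4.33%) had at least 500, and 413 (99.8%) and 271 (34.5%) had at least 100. The summed level was 862 (857 to 867) against 104 (103 to 105), a ratio of 8.28 (8.17 to 8.39). A UMI of Reg4 says little by itself in this library. After thinning every cell to 2000 UMIs it was found in 100% of Afp-high cells and 83.5% of Afp-low cells, but also in 55.4% of goblet cells and 46.8% of enterocytes, and free RNA, the sum of barcodes with 1 to 100 UMIs, held 36.8 per 10000. The median Afp-low cell was thus below the free RNA level, but above the median goblet cell (3.47) and the median enterocyte (2.82). The free RNA level is a share of the UMIs of those barcodes and not a background level within cells. Zg16, for example, was at 851 per 10000 in free RNA and at 107 in Afp-low cells.

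**Figure D1:**
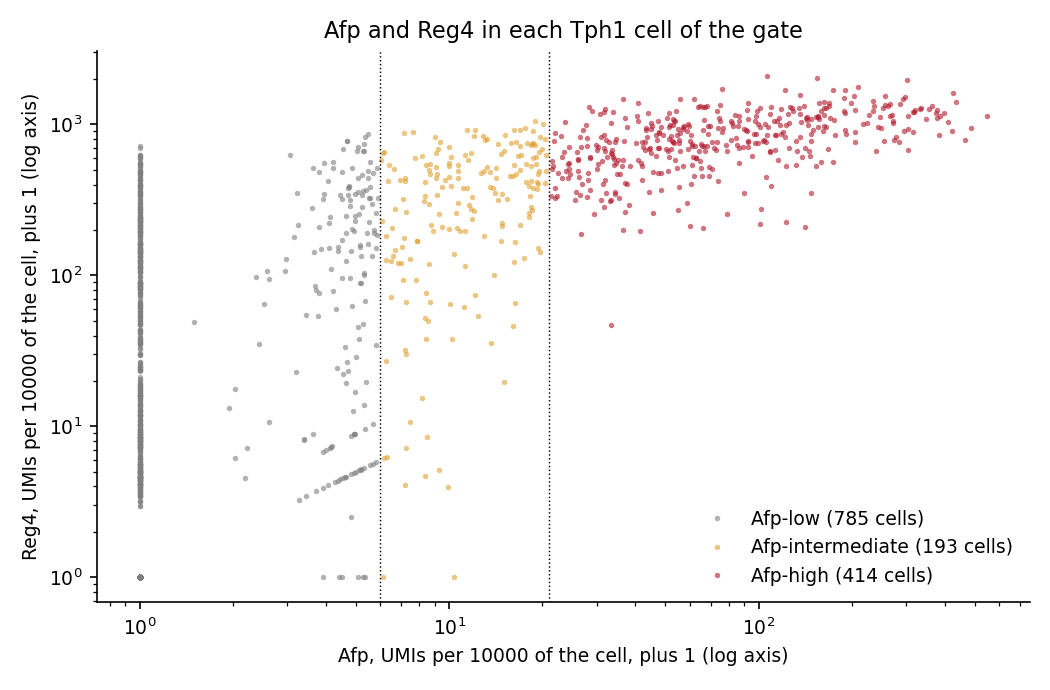
Each point is 1 of the 1392 cells of the gate, with its Afp level on the x axis and its Reg4 level on the y axis, both as UMIs per 10000 plus 1 on log axes, and dotted lines at the limits of 5 and 20. Reg4 of Afp-high cells lies between 46.3 and 2099.1, whereas Afp-low cells spread from 0 to 862.4.

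Ucn3, on chromosome 13 from 3940688 to 3945349, was found in 151 of the Afp-high cells (36.5%, 31.8 to 41.3%) and in 39 Afp-low cells (4.97%, 3.56 to 6.73%). The median cell held 0 in both groups and the highest cell 27.5 and 17.2 per 10000. Summed UMIs gave 2.74 (2.47 to 3.03) against 0.262 (0.202 to 0.334), a ratio of 10.5 (8.03 to 13.8). Most cells of either group thus showed no UMI of Ucn3 at this depth. The thinned shares were 27.3 and 3.64%, with 1.01% in goblet cells and 0.258% in enterocytes, and free RNA held 0.164 per 10000.

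Trpa1, on chromosome 1 from 14872648 to 14918862, was found in 256 Afp-high cells (61.8%, 57.0 to 66.5%) and in 170 Afp-low cells (21.7%, 18.8 to 24.7%). Its median level was 3.33 per 10000 in the former and 0 in the latter, with highest cells of 27.1 and 16.3. The summed levels of 4.30 (3.96 to 4.66) and 0.910 (0.795 to 1.04) gave a ratio of 4.72 (4.04 to 5.53). Thinned shares were 46.7 and 16.3%, against 1.33% in goblet cells and 1.81% in enterocytes, and free RNA held 0.279 per 10000. Trpa1 was therefore above the background of other cells in Afp-low cells too, at a lower level.

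The same genes were followed across the other cells of the library, split by simple gates of 1 or more hormones. Tac1-high cells had Tph1 of at least 10 and Tac1 of at least 30 (123 cells), and Sct-high cells had Tph1 of at least 10, Sct of at least 1500 and Tac1 under 30 (222 cells), both with the limits of the gate on Cck, Gip and goblet genes. In Tac1-high cells Afp was at 62.7 and Reg4 at 528, both below the Afp-high level. Ucn3 was higher there, at 6.82 (6.07 to 7.64), and so was Trpa1, at 7.41 (6.63 to 8.26). The ratio of Afp-high over Tac1-high cells was 0.402 (0.344 to 0.469) for Ucn3 and 0.579 (0.505 to 0.665) for Trpa1. In Sct-high cells all 4 genes were low: Reg4 stood at 11.7 and Ucn3 at 0.0604, and Trpa1 at 0.133, from 11 UMIs in all. Among cells gated on Gip, Cck, Ghrl or Sst, the summed level of a group did not exceed 33.7 for Reg4, 0.218 for Ucn3 and 0.253 for Trpa1. For Reg4 and Trpa1 these sums were at or below the free RNA level, which is not a background level within cells. Single cells reached 864.8 for Reg4 (Gip-high), 15.5 for Ucn3 and 9.94 for Trpa1 (both Cck-high). For Ucn3 the order was thus Tac1-high, Afp-high, intermediate and Afp-low cells, with separate counting intervals, and Trpa1 had the same order, also with separate intervals.

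**Figure D2:**
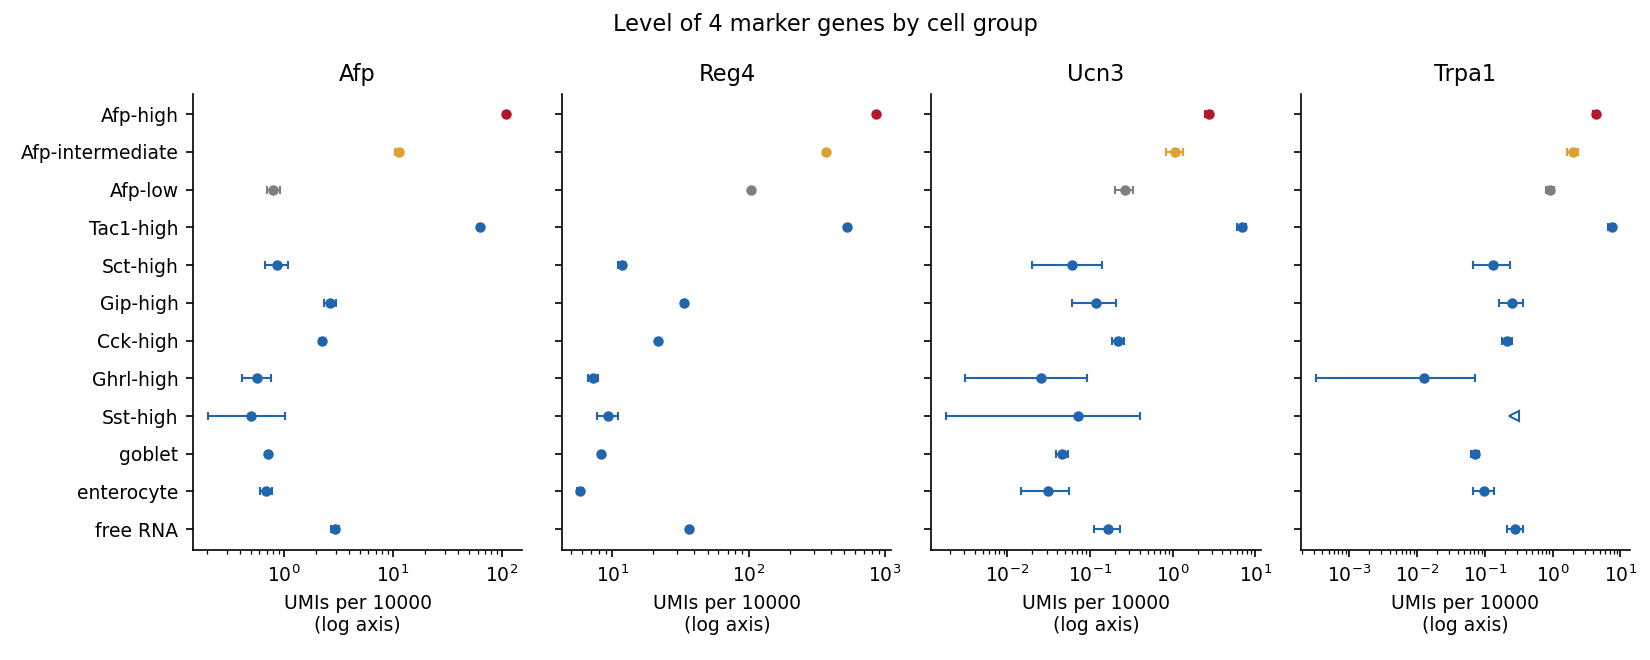
UMIs per 10000 (x axes, log) of Afp, Reg4, Ucn3 and Trpa1 summed over the cells of each group (rows), with 95% Poisson intervals for counting error; the open triangle marks the upper limit where no UMI was found. Afp and Reg4 are highest in Afp-high cells (110.5 and 862), Ucn3 and Trpa1 in Tac1-high cells (6.82 and 7.41).

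Within the gate, the genes followed the Afp level in steps. Reg4 stood at 86.3 per 10000 in the 616 cells with no UMI of Afp, at 369 in the cells with Afp of 5 to under 20, at 649 at 20 to under 50 and at 1174 in the 58 cells with 200 or more. Trpa1 went from 0.864 to 1.98, 2.89 and 8.74 over the same bins, and Ucn3 from 0.167 to 1.07, 1.90 and 4.39. Sct, which the gate limited at its upper end, ran the other way, from 446 to 390, 322 and 131. Tph1 stayed between 41.9 and 56.3 in all 7 bins. The median depth was 2708 UMIs per cell in the lowest bin and 3370 in the highest, and its part in these steps was not tested.

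**Figure D3:**
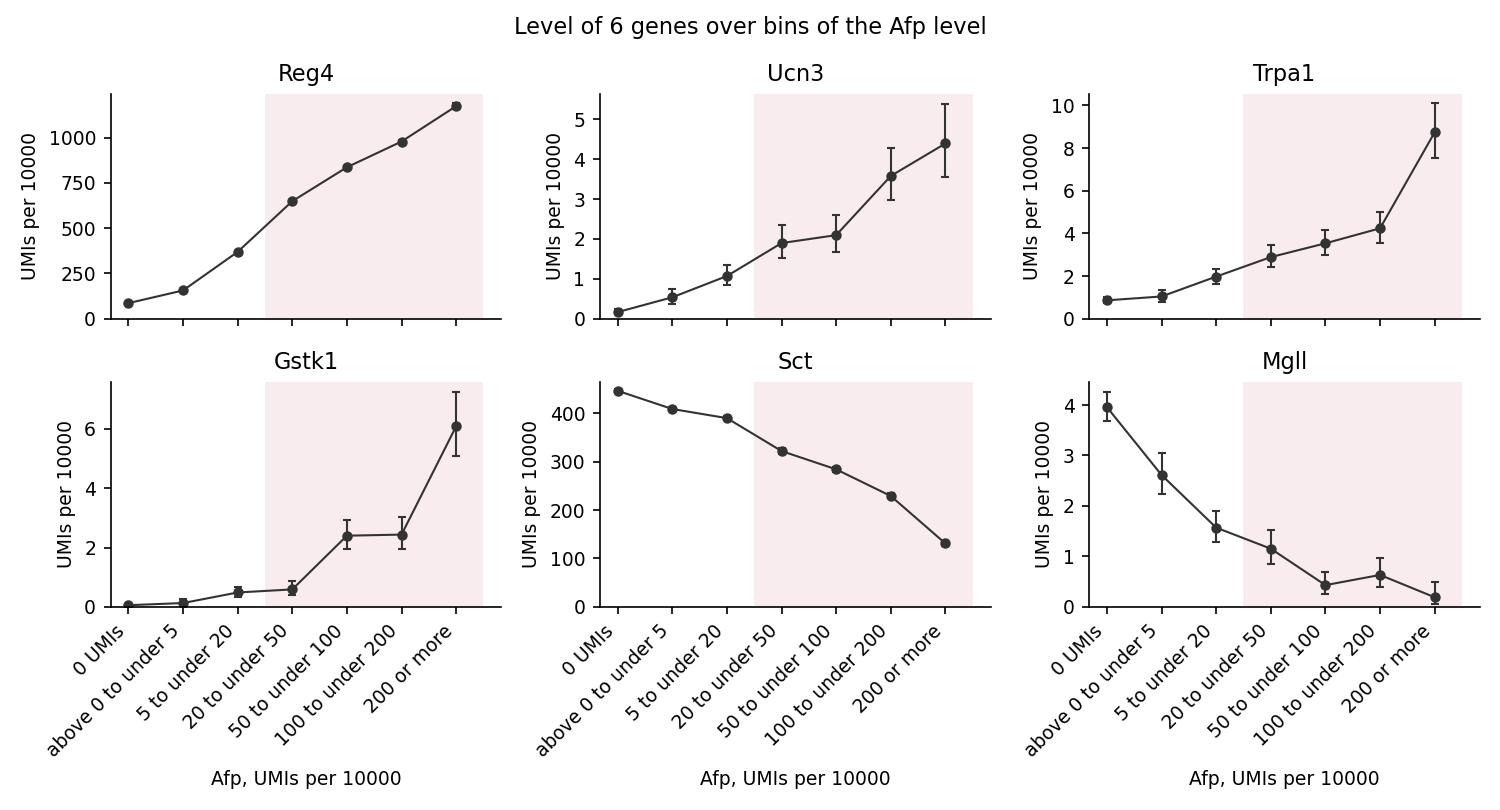
Levels of Reg4, Ucn3, Trpa1, Gstk1, Sct and Mgll (y axes, UMIs per 10000, from 0, with 95% Poisson intervals) in cells of the gate grouped by Afp level (x axes), the shaded bins being Afp-high cells. Reg4 goes from 86.3 to 1174 and Sct from 446 to 131.

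Among the Afp-high cells alone, thinned to 2000 UMIs (411 cells), Reg4 was correlated with Afp at a Spearman coefficient of 0.54 (Pearson 0.50 on log values) and Sct at -0.43 (Pearson -0.43). For Tph1 the coefficient was 0.05. These are descriptions over cells of 1 library, with no p-value. Trpa1 was found in 67.0% of the thinned cells with a UMI of Ucn3 and in 39.1% of those without, and Tac1, which the gate kept under 30, in 73.2 and 36.5%.

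Across the transcriptome, 6948 genes outside the gate had at least 50 UMIs in Afp-high and Afp-low cells together. Of these, 154 were more than 2-fold higher in Afp-high cells (2.22%) and 343 more than 2-fold lower (4.94%). Counts in the gene lists below are to be read beside these shares. The median ratio of all 6948 genes was 0.878, or -0.19 on the log2 scale. When the genes of the gate and Reg4 were left out of the denominator this median was -0.075, which moves every ratio by the same factor.

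The 15 genes highest by the lower bound of their ratio included Reg4 and Ucn3, and the others are given by their known roles. Gstk1, a glutathione transferase of mitochondria and peroxisomes, was found in 139 Afp-high and 16 Afp-low cells, at 2.39 and 0.0725 per 10000, a ratio of 33.02 (20.57 to 56.41). Ptgr1, which reduces lipid aldehydes and prostaglandins, was found in 193 and 51 cells, with a ratio of 9.85 (7.49 to 13.1). Akr1c14, an aldo-keto reductase, and Cyp2j12, a cytochrome P450, had ratios of 23.8 (11.6 to 56.5) and 24.8 (10.1 to 78.7). Cidea, a protein of lipid droplets, Fabp3, a fatty acid carrier, and Enpp2, the secreted enzyme that makes lysophosphatidic acid, had ratios of 13.2, 9.13 and 8.83.

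Alb, the gene of serum albumin, lies next to Afp in the same orientation, on chromosome 5 from 90460897 to 90476602. It had 81 UMIs in 36 Afp-high cells, 21 of them in 1 cell, and 2 UMIs in Afp-low cells, a ratio of 72.7 (19.5 to 610.7), but its level of 0.586 per 10000 was far below the 110.5 of Afp. Afm, on the other side of Afp beyond a gene with no UMI, had 5 and 8 UMIs. Akr1c14 lies beside Ucn3 on chromosome 13 in the order of the gene table, and Net1 and Tubal3 on the other side were also higher in Afp-high cells, with ratios of 3.36 (2.39 to 4.76) and 3.59 (1.95 to 6.85).

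The other genes among the 15 were Hip1, an endocytic adaptor, with a ratio of 32.3 (14.4 to 90.0), Mfap3l with 16.9, Gdf15, a stress-induced hormone that acts on the brainstem, with 13.1 (5.91 to 34.2), Rpp25, a subunit of ribonuclease P, with 7.75, and Hbb-bs. Gdf15 rested on 51 and 7 UMIs. Hbb-bs, a globin of red blood cells, had 63 UMIs in 11 Afp-high cells, but 38 of them came from 1 cell. Of the 15 genes, 8 were higher in Afp-high than in Tac1-high cells, 3 of them by over 2-fold (Alb, Cyp2j12 and Hbb-bs), and all 15 exceeded 2-fold against Sct-high, Cck-high, Gip-high, Ghrl-high and Sst-high cells, goblet cells and enterocytes. Among these 3, Alb and Hbb-bs each rested in part on 1 Afp-high cell. Gstk1 was lower than in Tac1-high cells (4.18 per 10000), at a ratio of 0.572 (0.476 to 0.689).

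Of the 15 genes lowest in Afp-high cells, 11 had UMIs spread over many Afp-low cells. Mgll, the lipase that breaks down the endocannabinoid 2-arachidonoylglycerol, was found in 69 Afp-high cells (16.7%) and 478 Afp-low cells (60.9%), at 0.673 and 3.62 per 10000, a ratio of 0.186 (0.149 to 0.230). The noncoding RNA Gm42637 was also found in 478 Afp-low cells, against 47 Afp-high cells, with a ratio of 0.138 (0.114 to 0.165). Thrb, a thyroid hormone receptor, had a ratio of 0.163 (0.103 to 0.245). Stmn2, a microtubule regulator of neurons, Itgb7, an integrin, and Sema3c, a guidance cue, had at most 4 UMIs each in Afp-high cells and 82 to 114 in Afp-low cells. Gm4792, with 2 UMIs against 107, had the lowest ratio, 0.0336 (0.00401 to 0.124). The noncoding RNA Gm43194 and 1500009L16Rik had ratios of 0.162 and 0.154. The 15 genes were not lowest in Afp-high cells across the library: 10 of them were higher in Afp-high than in Tac1-high cells, 6 higher than in Sct-high cells and 9 higher than in goblet cells, and 0 were lower than in every other group.

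Serpina1b and Serpina1d, near-identical copies of the alpha-1-antitrypsin gene between which reads can be split, had ratios of 0.130 and 0.121. Of the 5 copies with UMIs, all were lower in Afp-high than in Afp-low cells: Serpina1c, the most abundant, stood at 4.65 against 12.9 per 10000 (0.361, 0.331 to 0.393) and Serpina1e at 2.56 against 8.12 (0.315, 0.281 to 0.353), while Serpina1a had a ratio of 0.356. Serpina1c was lower still in Sct-high cells (2.78) and in Tac1-high cells with Afp of at least 20 and under 5 (0.483 and 0.990). Against Sct-high cells, Serpina1b and Serpina1d had ratios of 0.599 (0.334 to 1.07) and 0.856 (0.294 to 2.65). Other genes of plasma proteins went the opposite way. Ttr, transthyretin, stood at 5.76 against 2.44 (2.36, 2.12 to 2.63) and Ambp, the alpha-1-microglobulin precursor, at 24.8 against 16.8 (1.48, 1.41 to 1.55). Of the 19 genes in the list of plasma proteins and serpins, 10 were tested, 2 were over 2-fold higher and 5 over 2-fold lower, with a median ratio of 0.685 beside 0.878 for all genes. The shares over all genes were 2.22% higher and 4.94% lower. The summed level of the list was 39.3 and 43.2 per 10000.

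Mptx2, a Paneth cell gene, Gm14851 and Gm21002 were also among the 15. Their excess in Afp-low cells came from few cells: 1 Afp-low cell held 745 of 2354 UMIs of Gm14851. Summed over 6 Paneth markers, the median cell was at 39.5 in Afp-high and 40.2 in Afp-low cells, the highest at 321.7 and 3692.1. Without the 2 Afp-high and 11 Afp-low cells at 200 or more, the ratio was 1.05 for Gm14851, 1.26 for Gm21002 and 0.804 for Mptx2, whereas the 11 genes described before them stayed at 0.183 or below.

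**Figure D4:**
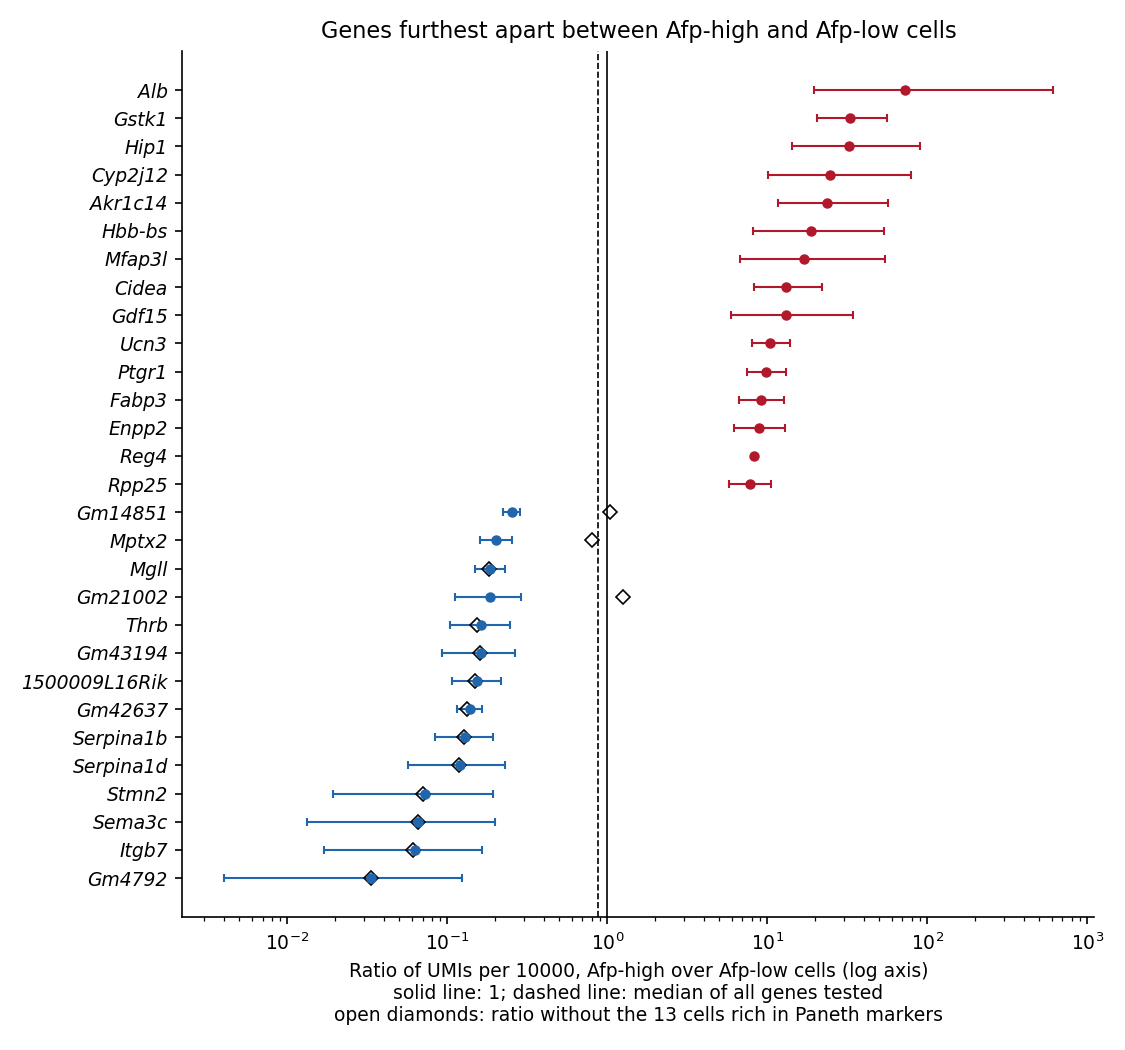
Ratio of UMIs per 10000 in Afp-high over Afp-low cells (x axis, log) for the 15 highest genes (red) and 14 of the 15 lowest (blue), with 95% intervals for counting error; the open diamonds are ratios without the cells rich in Paneth markers. The diamonds of Gm14851, Mptx2 and Gm21002 lie near 1 (0.804 to 1.26).

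Genes of the serotonin pathway were mostly within 2-fold of each other in the groups, the exceptions being a transporter and a degrading enzyme. Of 12 genes of serotonin synthesis and handling, 10 were tested, with a median ratio of 0.989, and 1 was higher and 1 lower past 2-fold. Most of all genes were likewise within 2-fold, with 2.22% higher and 4.94% lower. Slc18a2, the monoamine transporter of neurons, had 55 UMIs against 10, a ratio of 9.88 (4.99 to 21.7), but its level of 0.398 per 10000 was well below the 4.77 of Slc18a1. Maob, which degrades monoamines, was over 2-fold lower (0.442, 0.290 to 0.655). Ddc (1.56, 1.41 to 1.74) and Slc18a1 (1.36, 1.23 to 1.51) did not pass 2-fold, and Qdpr and Gch1, which serve the cofactor of Tph1, had ratios of 0.687 and 0.759. Tph1, used by the gate, was at 52.5 and 46.8. In Tac1-high cells with Afp of at least 20 and under 5, Slc18a2 stood at 0.966 and 0.565 per 10000, from 22 and 8 UMIs. There, Ddc was at 9.05 and 6.86 and Slc18a1 at 3.95 and 2.33.

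Most granule genes, like most of all genes, stayed within 2-fold. Of 15 genes, all tested, 1 was over 2-fold higher and 2 over 2-fold lower, and the median ratio was 0.889, near the 0.878 of all genes. Among all genes 2.22% were higher and 4.94% lower. The higher gene was the prohormone convertase Pcsk2 (2.32, 1.32 to 4.13, from 31 and 24 UMIs), and the lower genes were Scg2, secretogranin II (0.332, 0.240 to 0.452), and Pcsk1n, an inhibitor of convertases (0.415, 0.384 to 0.447). Within 2-fold, the ratio was 1.51 (1.48 to 1.53) for Chga, 1.36 (1.35 to 1.38) for Chgb, 1.51 (1.41 to 1.62) for Resp18 and 0.501 for Scg3. In the list of exocytosis genes, 18 of 23 were tested, none was over 2-fold higher and 1 was lower, Syt5 (0.466), while Snap25 was at 1.08 and the calcium sensor Syt7 at 0.605. The count of 0 is by ratio alone.

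Peptide hormones outside the gate were mostly low in both groups. Of 23 genes in the list, 4 are limits of the gate and 9 were tested, of which Ucn3 was higher and Ghrl, Sst, Iapp and Gcg were lower past 2-fold. The shares over all genes were 2.22 and 4.94%. Single Afp-low cells weighed on 3 of the 4 lower calls, holding 2956 of 7648 UMIs of Ghrl, 1008 of 1893 UMIs of Sst and 38 of 75 UMIs of Iapp. Without the Afp-low cell with the most UMIs of each gene, and with all Afp-high cells kept, the ratio was 0.515 for Ghrl (0.317 with it), 0.638 for Sst (0.299) and 0.533 for Iapp (0.263). None of these was then past 2-fold, while Gcg was at 0.428 (0.387). The top Afp-high cell, which was kept, held 79 of 1350 UMIs of Ghrl, 84 of 315 of Sst and 1 of 11 of Iapp. Ratios without the top cell of both groups are not given, so whether these calls hold is not settled. Pyy was at 22.1 and 23.7 and Cartpt at 20.04 and 21.42, with ratios of 0.936 and 0.935. The Pyy ratio was uneven, at 0.766 (0.700 to 0.837) in cells with Xist only and 2.85 (2.59 to 3.14) in cells with a Y gene only. It was 0.241 with Sct under 100, 1.31 at 100 to under 500 and 1.88 at 500 to under 1500. The median cell of both groups held 0 Pyy, and 17 Afp-high and 25 Afp-low cells held 200 or more. Nts, neurotensin, had a ratio of 0.595. Tac1 and Sct, which the gate limited, were at 5.41 against 2.25 and at 259 against 437.

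Among transcription factors of endocrine cells, 20 of 34 were tested, with a median ratio of 1.01. Past 2-fold, 1 was higher and 3 were lower, beside 2.22 and 4.94% of all genes. Nkx2-2, needed for EC and other endocrine fates, was the 1 gene over 2-fold higher (0.781 against 0.270 per 10000, 2.89, 2.11 to 3.99). It was higher still in Tac1-high cells, at 1.76 with Afp of at least 20 and 1.77 with Afp under 5, a ratio of 0.994 (0.589 to 1.71). Prox1 (0.348, 0.197 to 0.580), Pax4 (0.456) and Onecut3 (0.473) were over 2-fold lower. Neurod1 (0.972), Lmx1a (0.962) and Fev (1.05) differed little. Sox4, found in progenitors and in mature cells, had a ratio of 1.65 (1.53 to 1.78). The 15 genes of crypt, stem and progenitor cells, Sox4 among them, summed to 11.7 per 10000 in Afp-high and 9.11 in Afp-low cells. Sox4 alone stood at 9.21 and 5.59, so the higher sum in Afp-high cells came from this gene. Of the 8 tested, 3 were over 2-fold lower (Hmgb2 0.305, Stmn1 0.371 and Axin2 0.449), none was over 2-fold higher by ratio, and the median ratio was 0.957, with Atoh1 at 1.22, Sox9 at 1.18, Pcna at 0.971 and Hes6 at 0.944.

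Receptors and channels that could detect gut contents were sparse. Of 36 genes, 12 were tested, with 1 higher and 1 lower past 2-fold, beside 2.22 and 4.94% of all genes. Trpa1 was over 2-fold higher and Galr1, a receptor of the inhibitory peptide galanin, over 2-fold lower, at 0.109 against 0.584 per 10000 (0.186, 0.101 to 0.317). Galr1 was also low in Sct-high cells, at 0.0604 from 5 UMIs, and in Tac1-high cells, with 1 UMI at Afp of at least 20 and 0 at Afp under 5. The median ratio was 0.972. The fatty acid receptors Ffar2 (0.737) and Ffar4 (0.979) and the heat-sensitive channel Trpm2 (0.791) were within 2-fold. Trpc5, left untested for its 25 UMIs and named after its values were seen, had 23 UMIs in Afp-high and 2 UMIs in Afp-low cells. Of 25 genes of electrical excitability, 9 were tested and none was over 2-fold higher by ratio. The calcium channel subunit Cacna2d1 (2.495 against 5.247 per 10000, ratio 0.475, 0.421 to 0.536) and the potassium channel Kcnk1 (0.449) were lower, and the sodium channel Scn3a was at 1.17. In the Reg family, the 3 tested genes other than Reg4 (Reg1, Reg3b and Reg3g) had ratios of 0.896, 0.766 and 0.686.

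**Figure D5:**
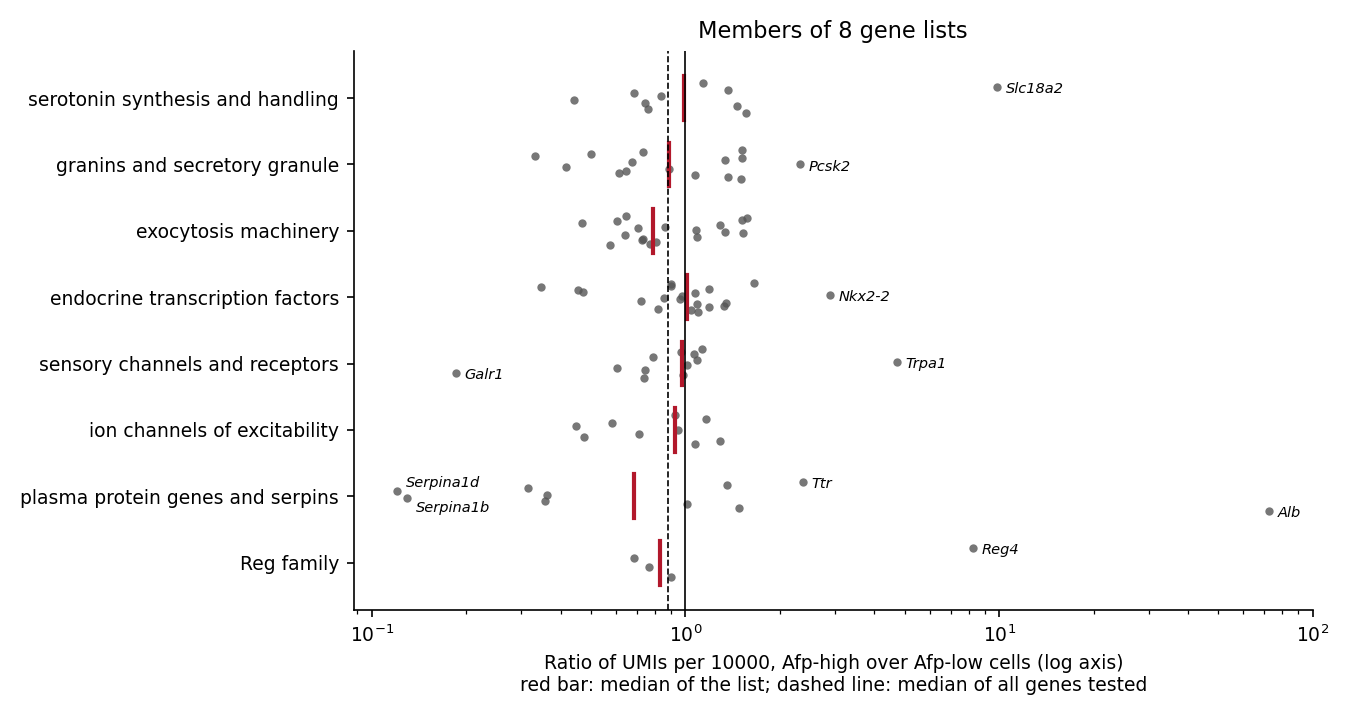
Ratio of UMIs per 10000 in Afp-high over Afp-low cells (x axis, log) for each tested member (points) of 8 gene lists (rows), with the list median as a red bar, 1 as a solid line and the median of all genes as a dashed line. List medians lie between 0.685 and 1.01, and single genes such as Alb, Slc18a2 and Reg4 lie apart from their lists.

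Markers of other cell types were read beside these results. The 8 enterocyte genes summed to 78.6 per 10000 in Afp-high and 58.2 in Afp-low cells (cell medians 63.6 and 32.8). Apoa1 (1.65), Fabp1 (1.56), and Rbp2 (1.56) were higher in Afp-high cells, Sis (0.618), Fabp2 (0.680), Apoa4 (0.803) and Alpi (0.691) lower, and none passed 2-fold. The goblet list summed to 360 and 368, with Agr2 at 6.78 against 23.3 (0.292) and Tff3 at 165 against 143. The 7 immune genes summed to 0.434 and 1.37, and 5 Afp-low cells and 0 Afp-high cells held 20 or more. Tuft genes were at 1.24 and 1.23, genes of the immediate early and stress response at 68.1 and 71.8 with no member tested past 2-fold. Genes of the BMP response and the villus had a median ratio of 0.840, 0 of 11 past 2-fold, with Id2 at 1.79, and 2 regional genes tested had a median of 1.08. The part of these other markers in the ratios was not tested.

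Sct differed between the groups, so the ratios were taken again within 3 ranges of Sct. The Reg4 ratio was 13.9 in cells with Sct under 100 (61 Afp-high and 24 Afp-low cells), 6.34 at 100 to under 500 (316 and 532 cells) and 14.5 at 500 to under 1500 (37 and 229 cells). Of the 15 highest genes, 8, 15 and 14 had UMIs in both groups in these ranges, and 8, 15 and 13 of these were over 2-fold higher. Of the 15 lowest, 8, 15 and 11 had UMIs in both groups, and 8, 15 and 9 were over 2-fold lower. Both sets of genes were chosen on these same cells, so the counts describe only how evenly the Sct ranges contribute. For Trpa1 the ratio was 12.95 (6.89 to 27.42) with Sct under 100, above that of the middle range (3.42, 2.85 to 4.11) and of the upper range (2.72, 1.48 to 4.84). The Ucn3 ratio was 8.35 (6.07 to 11.7) in the middle range and 7.42 (3.76 to 14.8) in the upper one, and in the lowest the 24 Afp-low cells held 1 UMI.

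Cells of the 4 mice cannot be told apart, but cells with a UMI of Xist and none of a Y-linked gene can be set beside cells with the reverse. The sets need not be pure, since such a UMI can be free RNA, and 11 Afp-high and 19 Afp-low cells held UMIs of both kinds. Afp-high cells were 29.9% of the gate among 351 cells with Xist only, and 28.8% among 229 cells with a Y gene only. The Reg4 ratio was 7.92 (7.72 to 8.12) in the former and 8.86 (8.58 to 9.15) in the latter, the Ucn3 ratio 8.44 (4.86 to 15.6) and 10.7 (5.91 to 20.98), and the Trpa1 ratio 5.71 (4.21 to 7.85) and 4.34 (3.03 to 6.31). The 15 highest and 15 lowest genes were chosen on these same cells, so their ratios here describe only how evenly the sets contribute. Of the 15 highest, 14 and 13 had UMIs in both groups, all with a ratio above 1, of which Hbb-bs in the cells with a Y gene rested on 1 UMI against 1. Of the 15 lowest, 13 and 13 had UMIs in both groups, and 13 and 11 had a ratio below 1.

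The same contrast was then read in cells that the gate leaves out. Among Tac1-high cells, 65 had Afp of at least 20 and 38 had Afp under 5. Reg4 stood at 809 and 97.9 per 10000 in them, a ratio of 8.26 (7.82 to 8.73), Ucn3 at 10.2 and 1.84 (5.57, 3.71 to 8.70), and Trpa1 at 10.2 and 2.76 (3.71, 2.64 to 5.35). Both Ucn3 and Trpa1 were thus above their levels in Afp-high cells of the gate in the 65 cells, and below them in the 38 cells. Of the 15 highest genes, 10 had UMIs in both groups there, and these 10 were over 2-fold higher with high Afp, while the other 5 (Alb, Hip1, Cyp2j12, Hbb-bs and Enpp2) had 0 UMIs in the 38 cells and give no ratio. Of the 15 lowest, 12 had UMIs in both groups, of which 3 were over 2-fold lower and 1 over 2-fold higher, and all were sparse, with at most 24 UMIs in the 38 cells. Among cells that passed every other limit but had a goblet sum of 500 or more, 132 had high and 400 low Afp. There, 14 of the 15 highest genes had UMIs in both groups and all 14 were over 2-fold higher, and of 13 such genes among the 15 lowest 9 were over 2-fold lower, with Reg4 at a ratio of 9.83 (9.62 to 10.1). Such cells can hold RNA of a goblet cell as well. Another 21 cells had high Afp but Tph1 under 10 and passed the other limits, with Reg4 at 484, Ucn3 at 3.15 and Trpa1 at 3.98 per 10000, beside 862, 2.74 and 4.30 in Afp-high cells of the gate.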

How the data were processed

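Small-intestinal tdTomato+ cells of 4 pooled mice gave 1 droplet library (GemCode platform, 10x Genomics). The authors aligned its reads to mm10 with Cell Ranger 2.0.1 and deposited UMI counts per gene and barcode, unnormalized, for 475960 barcodes and 108489965 UMIs in all. The bulk libraries of the series were not used here.

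Barcodes were kept and gated as given in the report. Cells, markers, gene lists and the naming of 15 and 15 genes were chosen with earlier results of these data known. Genes needed at least 50 UMIs over both groups. Genes of the gate, mitochondrial genes, Xist and Y-linked genes were left out of counts. The named genes are the 15 with the highest lower bound and the 15 with the lowest upper bound of the ratio, the 4 markers, and at most 8 members a list. Cells were pooled by gate, not clustered. Goblet cells had the goblet sum at 500 or more and Tph1 under 10, enterocytes a sum of 8 markers of at least 300, and Gip-, Cck-, Ghrl- and Sst-high cells at least 500, 200, 500 and 500 of that hormone. Thinning drew 2000 UMIs per cell with seed 1 and left out 3 Afp-high and 44 Afp-low cells. Doublets were kept; the automatic threshold of Scrublet called 0 cells, so the 715 highest scores were left out as an alternative. Gene positions are those of GENCODE M21, on GRCm38. The ratio calculation was tested on simulated data. Sums and intervals used scipy 1.17.1 with numpy 2.4.6, tables pandas 2.3.3, doublet scores scanpy 1.11.5 and plots matplotlib 3.10.9, all under Python 3.11.15. Alternatives varied the limits on genes, mitochondrial share, Afp, Sct, Tph1, depth, sex, minimum UMIs and denominator. A few results, 1 of the 15 lowest genes among them, are not reported here.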

Additional observations from a re-analysis of the deposited data

How the results depend on the processing

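The number of Afp-high cells was 105 with a minimum of 1500 genes, 90 with barcodes over the Cell Ranger 2 limit alone, 105 in cells with Xist alone and 66 in cells with a Y gene alone, by construction of these subsets. Genes over 2-fold higher numbered 67 with Xist alone, 51 with a Y gene alone, 283 at a minimum of 20 UMIs, 86 at 100 UMIs and 1389 at 1 UMI. Genes over 2-fold lower numbered 221 with 1500 genes, 158 over the Cell Ranger 2 limit, 146 with Xist alone, 103 with a Y gene alone, 724 at 20 UMIs, 182 at 100 UMIs and 3101 at 1 UMI, the number of genes tested moving in the same direction. The other alternatives left these 3 counts within 1.5-fold. Over 22 alternatives the ratio ran from 6.82 to 11.5 for Reg4, 7.64 to 16.4 for Ucn3 and 3.90 to 6.90 for Trpa1. The 15 highest genes, chosen on largely the same cells, were above 1 in every alternative, in the smallest subsets partly against 0 UMIs. Of the 15 lowest genes, 12 stayed below 1 in cells of 2000 to 4000 UMIs and 12 without cells rich in Paneth markers. The limits on Paneth markers and on Ghrl and Sst, the removal of the top cell of each gene (or of the top Afp-low cell of a hormone), and the denominator without Reg4 were chosen after seeing the data. No paired analysis was possible because 1 library holds all cells. With 1 library the variation between mice is unknown, and at a median of 2981 UMIs a gene near 0.1 per 10000 is found in few cells.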
